A study of Mus musculus with 36 samples.

Results

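The RGK genes *Rrad*, *Gem*, *Rem1* and *Rem2* encode a small family of Ras-related GTPases that bind the β subunit of voltage-gated calcium (CaV) channels and reduce the calcium current. The 4 genes were taken by name from the 55416 genes of the count matrix. They were chosen by their levels in the 6 groups and by the difference in their response to stimulation between myotubes with *Tug1* knocked down and control myotubes, so these values are given below as a description, with no test.

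RNA was sequenced from C2C12 myotubes, the multinucleate product of a mouse myoblast line kept in low-serum medium. On day 3 of differentiation the cells received an antisense locked nucleic acid (LNA), either against the long noncoding RNA *Tug1* (*Tug1* KD, or KD below) or a negative control (control myotubes), and they were used 24 h later, on day 4. For 3 h they then had electrodes in the medium that were not connected (Rest) or underwent electrical pulse stimulation (EPS; 13 V, 66 Hz, 2 ms pulses, with 5 s of pulses followed by 5 s of pause), which makes myotubes contract. Stimulated cells were lysed at once (EPS 0h) or 3 h later (EPS 3h). Each of the 6 groups (Rest, EPS 0h and EPS 3h, each with either LNA) held 6 libraries of 1 well each, from 2 independent experiments. All groups share 1 cell line and a transfection, and wells of an experiment share their culture, so the errors below are partly the spread between wells.

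In skeletal muscle the channel formed by CaV1.1 and the β subunit CaVβ1 serves as the voltage sensor that opens the ryanodine receptor of the sarcoplasmic reticulum. RGK proteins bind CaVβ and calmodulin and lower both the number of channels at the membrane and their opening. Rrad was described in muscle and Gem in mitogen-stimulated cells. Rem1 is found mainly in heart and muscle and Rem2 mainly in neural and endocrine cells.

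Counts on genes ran from 17005079 to 24181167 per library. The libraries of replicates 1 to 3 and of replicates 4 to 6 stood apart within groups on the first principal component. Replicate 3 of EPS 3h control myotubes was an exception, on the side of replicates 4 to 6. The gap was narrow in KD myotubes at Rest (replicate 3 at -4.79, replicate 4 at 1.47) and at EPS 3h (-0.944 and 8.82). Values for both sets are given in several comparisons below. *Tug1*, the target of the LNA, ran from 38.5 to 58.2 RPM (reads scaled to library size with TMM factors) in control and from 23.9 to 33.2 in KD myotubes at Rest, a log2 fold change (log2FC) of -0.83 ± 0.17 (SE, FDR = 0.000915). At EPS 0h (-0.57 ± 0.17, FDR = 0.0178) and EPS 3h (-0.51 ± 0.17, FDR = 0.0414) it was also lower, with libraries that overlapped. The EPS 0h call was lost without replicate 3 or 5 (FDR up to 0.0758) and the EPS 3h call without replicate 1, 3, 4, 5 or 6 (up to 0.146). *Tug1* itself rose with EPS in control myotubes (0.48 ± 0.17 at EPS 0h, with an FDR of 0.0223 that reached 0.0652 without replicate 1, 3, 4 or 5, and 0.75 ± 0.17 at EPS 3h, FDR = 0.00033). The 10 myotube markers passed the filter on low counts, and their summed level was between 14720 and 22380 RPM in every library. The 6 markers of proliferating myoblasts, which also passed, summed in control myotubes to between 136 and 176 RPM at Rest, 174 and 210 RPM at EPS 0h, then 123 and 178 RPM at EPS 3h. In KD myotubes the sums lay between 122 and 154 RPM, 155 and 201 RPM, and 122 and 193 RPM. Of the other markers, the 4 adipocyte genes summed to at most 0.313 RPM at Rest and to between 1.86 and 3.12 RPM at EPS 3h, and the 4 endothelial genes to between 0.804 and 2.501 RPM at Rest and to between 5.91 and 14.0 RPM at EPS 3h. The 4 macrophage and leukocyte genes, of which *Cd68* passed the filter, summed at Rest to between 3.04 and 5.55 RPM in control and between 1.88 and 2.64 RPM in KD myotubes, with no overlap, and after EPS to between 2.73 and 4.25 RPM in control and between 1.958 and 3.37 RPM in KD myotubes. *Cd68* was lower in KD myotubes at Rest (-1.02 ± 0.18, FDR = 0.000116). The 4 neuron genes summed to between 57.4 and 97.6 RPM at Rest and to between 18.2 and 48.1 RPM at EPS 3h. Almost all of that neuron sum was *Tubb3*, with *Rbfox3*, *Syt1* and *Snap25* at most 0.236 RPM on average in every group. The part of the markers other than those of myotubes in the results was not tested. Comparisons of EPS 0h and of EPS 3h with Rest share the Rest libraries. In bulk RNA, fewer cells of a type and less RNA per cell cannot be told apart.

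In GRCm39, *Rrad* (ENSMUSG00000031880) lies on the minus strand of chromosome 8 at 105354695 to 105357990, and *Gem* (ENSMUSG00000028214) on the plus strand of chromosome 4 at 11704343 to 11714993. *Rem1* (ENSMUSG00000000359) lies on the plus strand of chromosome 2 at 152468819 to 152487694, and *Rem2* (ENSMUSG00000022176) on the plus strand of chromosome 14 at 54713557 to 54717892. Genes on the opposite strand overlap 3 of them. *Gm33023*, over *Rrad*, had at most 34 counts in a library and *Defb25*, over *Rem1*, at most 21, while *Gm69323*, over *Gem*, was not analysed here. RefSeq promoters (GRCm38.p6 table, 250 bases before to 50 after the start) were matched for 2 of the 4 genes, *Rem1* and *Rem2*, and each had 1 exact match on its chromosome in GRCm39. These are shown for the sequence around the start of both genes. Each is printed from the start of the window to 30 bases into the first annotated exon, on the plus strand, which is chr2:152468678-152468848 for *Rem1* and chr14:54713307-54713586 for *Rem2*. Capitals mark the motifs found, and the RefSeq start of *Rem1* lies 109 bases into that exon.
Rem1: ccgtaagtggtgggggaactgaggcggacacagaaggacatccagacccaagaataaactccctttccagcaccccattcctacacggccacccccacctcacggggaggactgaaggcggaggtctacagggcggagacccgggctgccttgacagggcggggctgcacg
Rem2: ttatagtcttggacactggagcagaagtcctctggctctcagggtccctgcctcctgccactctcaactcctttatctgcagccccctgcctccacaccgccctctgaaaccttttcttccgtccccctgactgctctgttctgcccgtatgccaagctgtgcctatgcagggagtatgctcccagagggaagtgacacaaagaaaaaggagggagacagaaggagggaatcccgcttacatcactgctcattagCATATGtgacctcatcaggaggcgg

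Both 300-base windows were searched on both strands. The E-box CANNTG occurred in both genes and in 72.3% of all 32851 promoters in the table. In *Rem2* it was CATATG at bases 6 to 11 after the start, shown in capitals, and CAGGTG at bases 42 to 47. In *Rem1* it was CATTTG, from the base before the start to base 5, and the core TGACG of the cAMP response element occurred on the opposite strand at bases 33 to 37, all past the printed stretch. That core is in 20.8% of promoters. The letters of the whole element TGACGTCA (1.79% of promoters), the AP-1 site TGAGTCA or its complement TGACTCA (5.2%), CCAAT (37.4%), TATAAA (13.6%), the serum response element (1.63%) and the MEF2 site (3.19%) are not in either window. The *Rem1* window was 68% G and C and that of *Rem2* 54.7%, against a median of 52.7% over all promoters.

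*Rrad* was the RGK transcript with the largest log2FC between KD and control myotubes at Rest and EPS 0h, and it was higher after EPS with either LNA. In control myotubes at Rest its lowest, median and highest levels were 13.7, 16.8 and 20.8 RPM. At EPS 0h they were 35.04, 46.9 and 60.8 RPM and at EPS 3h 27.5, 39.7 and 54.2 RPM. Every stimulated control library was above every control library at Rest, with a log2FC of 1.46 ± 0.14 (SE, n = 6 per group; 2.76-fold) at EPS 0h and of 1.27 ± 0.13 (2.41-fold) at EPS 3h.

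In KD myotubes *Rrad* was already at 30.3, 37.5 and 40.7 RPM (lowest, median and highest) at Rest, above every control library at Rest, and the log2FC of KD against control was 1.14 ± 0.13. It reached 60.8, 77.6 and 80.4 RPM at EPS 0h and 47.4, 53.9 and 55.9 RPM at EPS 3h. Against Rest in KD myotubes this was a log2FC of 1.02 ± 0.13 (EPS 0h) and 0.51 ± 0.13 (EPS 3h), with no overlap of the libraries at either time. The difference between KD and control narrowed from 1.14 at Rest to 0.70 ± 0.13 at EPS 0h, where 5 of 6 KD libraries were above every control library. At EPS 3h it narrowed to 0.38 ± 0.13, and 3 of 6 were. Under the alternatives run the value for EPS 3h ranged from 0.23 to 0.56. Control and KD means there were 46.9 and 55.0 RPM in replicates 1 to 3, and 34.3 and 50.5 RPM in replicates 4 to 6.

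The log2 response of *Rrad* to EPS was smaller in KD than in control myotubes, with a difference of -0.45 ± 0.19 for EPS 0h and -0.76 ± 0.19 for EPS 3h. With the replicate number as a block these were -0.44 ± 0.15 and -0.76 ± 0.15, and at EPS 3h replicates 1 to 3 gave -0.78 and replicates 4 to 6 gave -0.75. As a difference in RPM, from the higher level of KD myotubes at Rest, the order at EPS 0h was the opposite. *Rrad* gained 29.6 ± 4.35 RPM (SE) in control and 38.1 ± 3.36 RPM in KD myotubes at EPS 0h. At EPS 3h the gain was 23.7 ± 3.86 RPM in control and 15.6 ± 2.00 RPM in KD myotubes. The order of the group means was EPS 0h KD (75.3 ± 7.33 RPM, SD), EPS 3h KD (52.8 ± 3.16), EPS 0h control (46.5 ± 10.2), EPS 3h control (40.6 ± 8.92), Rest KD (37.2 ± 3.73) and Rest control (16.8 ± 3.13). Only the first and the last of these did not overlap their neighbour.

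**Figure D1:**
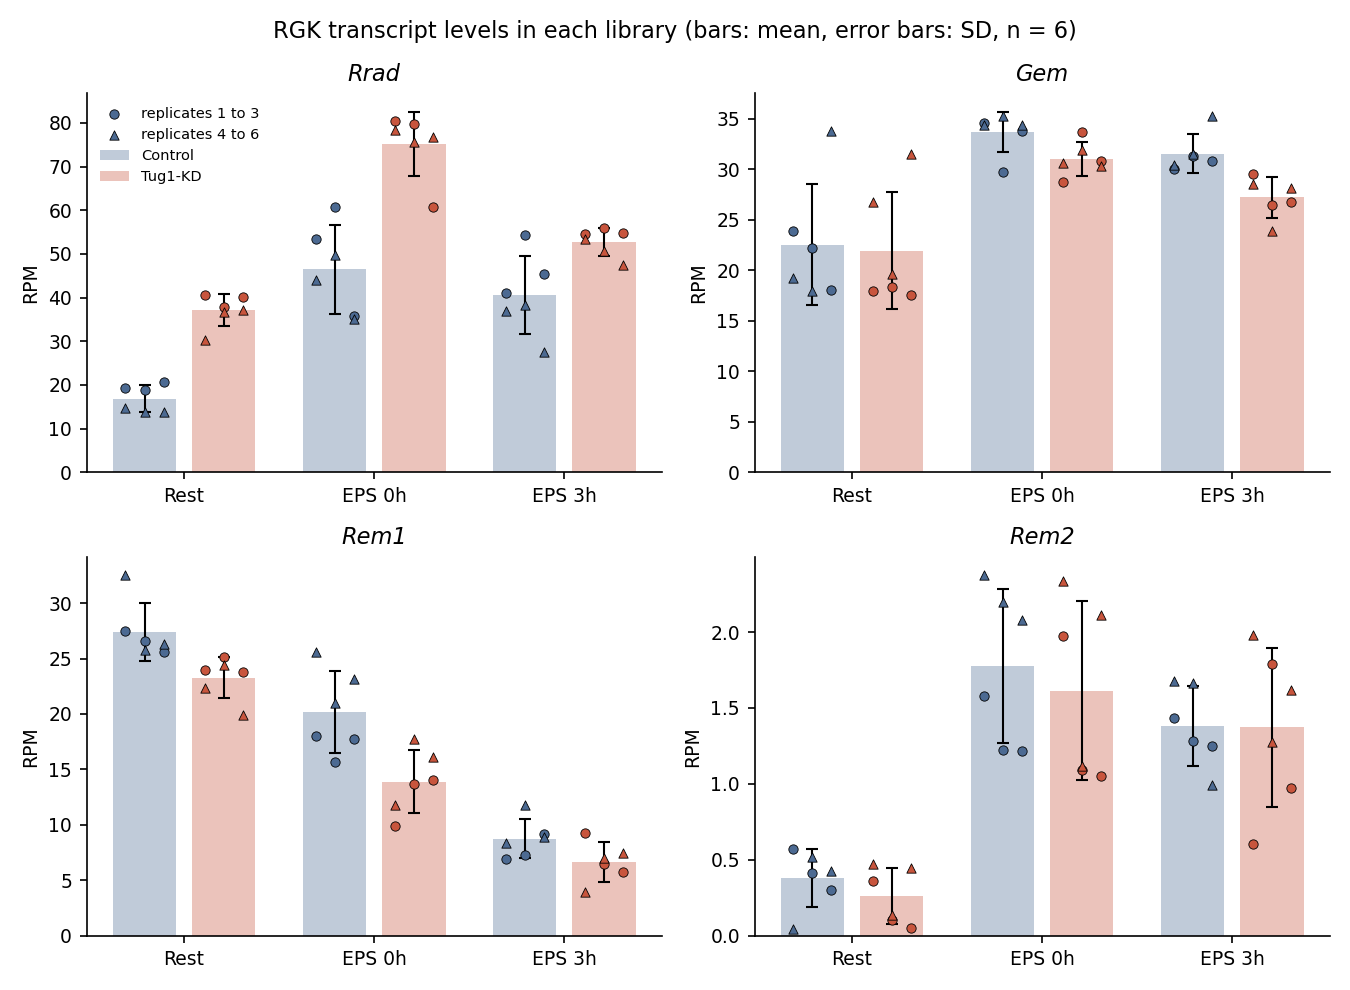
Level of each RGK gene (RPM, linear axes from 0) in every library, by condition and LNA. Bars are group means and error bars SD (n = 6), circles are replicates 1 to 3 and triangles replicates 4 to 6. *Rrad* at Rest was 16.8 RPM in control and 37.2 RPM in KD myotubes, and control myotubes had 27.4 RPM of *Rem1* at Rest against 8.75 RPM at EPS 3h.

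*Gem* was higher after EPS by less than *Rrad*, and its levels did not part by LNA at Rest. Control myotubes at Rest had 17.9, 20.8 and 33.7 RPM (lowest, median and highest), and the highest, replicate 6, was well above the other 5. At EPS 0h the values were 29.7, 34.4 and 35.3 RPM and at EPS 3h 29.98, 31.1 and 35.3 RPM. The log2FC was 0.58 ± 0.13 at EPS 0h, where 5 of 6 libraries were above every library at Rest, and 0.49 ± 0.13 at EPS 3h, where 1 of 6 was. Scaled by library size alone, the value at EPS 3h was 0.32.

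In KD myotubes *Gem* had 17.5, 18.9 and 31.5 RPM at Rest, 28.7, 30.7 and 33.7 RPM at EPS 0h and 23.9, 27.5 and 29.5 RPM at EPS 3h. All 6 stimulated libraries were above the mean at Rest, but only 2 at EPS 0h and 0 at EPS 3h were above every library at Rest. The log2FC of 0.50 ± 0.13 at EPS 0h came from 0.81 for replicates 1 to 3 and 0.25 for replicates 4 to 6. The value of 0.31 ± 0.13 at EPS 3h came from 0.64 and 0.05, and it was 0.14 when scaled by library size alone. The log2FC of KD against control was -0.04 ± 0.13 at Rest and -0.12 ± 0.12 at EPS 0h. At EPS 3h it was -0.21 ± 0.13, and every KD library was below every control library. The difference in the EPS response was -0.08 ± 0.18 for EPS 0h and -0.18 ± 0.18 for EPS 3h, positive in replicates 1 to 3 (0.20 and 0.10) and negative in replicates 4 to 6 (-0.30 and -0.40). Group means of *Gem* ran from 33.7 ± 2.02 RPM (SD) in EPS 0h control to 21.9 ± 5.81 RPM in Rest KD myotubes, and each group overlapped the next.

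*Rem1* was the RGK gene whose level was lower after EPS, and the difference was larger after recovery. Control myotubes had 25.6, 26.5 and 32.5 RPM at Rest, 15.7, 19.5 and 25.6 RPM at EPS 0h and 6.90, 8.64 and 11.8 RPM at EPS 3h. The log2FC was -0.44 ± 0.15 at EPS 0h and -1.64 ± 0.15 at EPS 3h, and -1.20 ± 0.15 between the 2 times. The value for EPS 0h came from -0.63 in replicates 1 to 3 and -0.28 in the other replicates. Every library at EPS 0h was below every library at Rest, by a small margin for the highest, and every library at EPS 3h was below all of them.

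KD myotubes had 19.9, 23.9 and 25.1 RPM of *Rem1* at Rest, 9.87, 13.9 and 17.7 RPM at EPS 0h and 3.91, 6.71 and 9.28 RPM at EPS 3h. The 3 conditions did not overlap, with a log2FC against Rest of -0.74 ± 0.15 for EPS 0h (-0.94 and -0.54 in the 2 sets) and -1.81 ± 0.15 for EPS 3h. KD libraries were lower than control at Rest without overlap (-0.24 ± 0.14, and from -0.34 to -0.13 under the alternatives run). The difference was -0.54 ± 0.15 at EPS 0h and -0.40 ± 0.16 at EPS 3h, and the latter was -0.12 for replicates 1 to 3 but -0.66 for replicates 4 to 6. The EPS response differed between KD and control by -0.30 ± 0.21 for EPS 0h and -0.16 ± 0.21 for EPS 3h. Under the alternatives run the value for EPS 3h ranged from -0.33 to 0.0085, so its sign was not fixed. In the order of group means, Rest control (27.4 ± 2.61 RPM, SD) stood apart from Rest KD (23.3 ± 1.87), which was followed by EPS 0h control (20.2 ± 3.72), EPS 0h KD (13.9 ± 2.85), EPS 3h control (8.75 ± 1.75) and EPS 3h KD (6.64 ± 1.80), each overlapping the next. The neuron marker *Tubb3*, added after its values were seen, went the same way, with means of 77.0 RPM at Rest and 38.2 RPM at EPS 3h in controls. Of the 4 neuron markers only *Tubb3* passed the filter on low counts, and 25.9% of all genes were called lower at EPS 3h in controls. The part of *Tubb3* was not tested.

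*Rem2* was near the limit of detection at Rest and above it after EPS. It had between 1 and 55 counts per library and reached 1 RPM in 21 of 36 libraries, so it passed the filter on low counts through the stimulated groups. The other 3 genes were above 1 RPM in all 36 libraries. Control myotubes had 0.0428, 0.419 and 0.574 RPM of *Rem2* at Rest, 1.22, 1.83 and 2.38 RPM at EPS 0h and 0.993, 1.36 and 1.68 RPM at EPS 3h. KD myotubes had 0.0536, 0.248 and 0.469 RPM at Rest, 1.05, 1.55 and 2.34 RPM at EPS 0h and 0.601, 1.45 and 1.98 RPM at EPS 3h. The lowest stimulated library was above the highest library at Rest with either LNA, and the stimulated groups overlapped one another.

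At Rest 1 of 6 control and 3 of 6 KD libraries had 3 counts of *Rem2* or fewer. Summed over the group, control myotubes had 48 counts at Rest, 216 at EPS 0h and 160 at EPS 3h. The scaled ratio was 4.81 for EPS 0h and 3.75 for EPS 3h. In KD myotubes 33 counts at Rest stood against 195 at EPS 0h, a ratio of 6.05, and 145 at EPS 3h, a ratio of 5.09. The fitted log2FC was 2.23 ± 0.36 and 1.87 ± 0.36 in control and 2.58 ± 0.38 and 2.34 ± 0.39 in KD myotubes, each for EPS 0h and then EPS 3h. The log2FC of KD against control was -0.49 ± 0.44 at Rest (-1.28 for replicates 1 to 3, 0.11 for replicates 4 to 6, and -0.98 without replicate 4), -0.14 ± 0.31 at EPS 0h and -0.02 ± 0.32 at EPS 3h. Under the alternatives run it ranged from -0.27 to 0.05 at EPS 0h and from -0.24 to 0.16 at EPS 3h. The EPS response differed by 0.35 ± 0.53 at EPS 0h (1.33 for replicates 1 to 3, -0.37 for replicates 4 to 6) and by 0.47 ± 0.54 at EPS 3h (1.03 and 0.05).

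**Figure D2:**
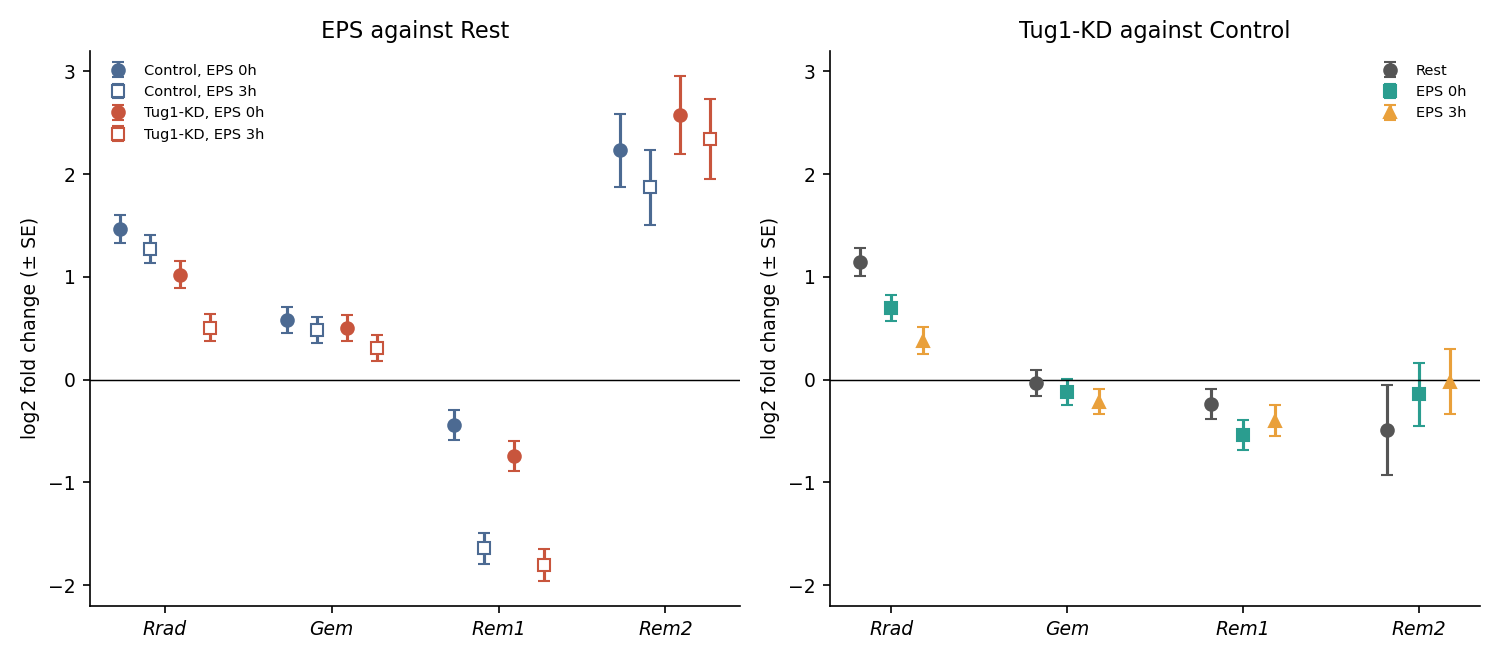
Fitted log2 fold change with its SE for each RGK gene, for EPS against Rest in control and KD myotubes (left) and for KD against control in each condition (right). At EPS 0h and then EPS 3h *Rrad* stood at 1.46 and 1.27 in control and at 1.02 and 0.51 in KD myotubes, and *Rem1* was below 0 in all 4 EPS comparisons.

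The 4 genes passed the filter that left 13995 genes, and an FDR under 0.05 over all of these counts as a call. Since the genes were chosen on these contrasts, the numbers of members called are given beside the shares of all genes and nothing is read from them. At EPS 0h against Rest in control myotubes 3 members were called higher and 1 lower, where 20.5% of all genes were called higher and 18.4% lower. The counts were also 3 and 1 at EPS 3h in control myotubes (26.1% and 25.9% of all genes), at EPS 0h in KD myotubes (24.4% and 21.2%) and at EPS 3h in KD myotubes (26.2% and 25.9%). For KD against control, 1 member was called higher and 0 lower at Rest (5.54% and 4.47% of all genes), 1 higher and 1 lower at EPS 0h (8.25% and 6.07%), and 0 and 0 at EPS 3h (6.38% and 5.11%). With the replicate number as a block, which pairs the libraries at EPS 3h, 1 member, *Rrad*, was called higher there and 0 lower (10.8% and 9.75% of all genes). For the difference in the EPS response at EPS 3h, edgeR called 1 gene of all those tested (0.00715%), *Fut2*, which was no member and was not called without replicate 2, 3 or 4. With the replicate number as a block it called 8 genes (0.0572%), of which *Rrad* was 1. That is the fit by which the members were chosen, and 0 members were called for EPS 3h under the other settings run, namely the block for the set of replicates, DESeq2, limma-voom, library size, both other filters, each set alone and each replicate number left out. At EPS 0h edgeR called 0 genes, with 324 at an unadjusted p under 0.05, DESeq2 and limma-voom called 0, and the replicate block gave 1 gene that was no member.

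Levels can be compared between the genes only per length, here in RPKM, which is RPM divided by the kilobases of merged exons. In control myotubes at Rest, *Rrad* had 9.59 ± 1.78 RPKM (SD) and *Gem* 8.72 ± 2.32, against 2.53 ± 0.24 for *Rem1* and 0.168 ± 0.0840 for *Rem2*. *Rrad* made up 45.8 ± 7.27% of the summed RGK level in that group and *Gem* 41.2 ± 7.55%. With the control LNA *Rrad* held 62.1 ± 6.24% directly after EPS and 62.3 ± 6.32% at 3 h of recovery. In KD myotubes its share was already 66.3 ± 6.08% at Rest, and it was 75.3 ± 2.07% and 71.8 ± 1.86% after EPS. *Rem1* made up 12.2 ± 2.17% at Rest and 2.24 ± 0.565% at EPS 3h in control myotubes. At EPS 3h the share of *Rem2* was 1.69 ± 0.366% in control and 1.46 ± 0.555% in KD myotubes, beside 1.47 ± 0.403% of *Rem1* in the latter (per longest transcript, 2.91 ± 0.786% of *Rem1* and 1.67 ± 0.636% of *Rem2*). *Rem1* has merged exons of 10816 bases and a longest transcript of 5245 bases, and with the latter its share at Rest in control myotubes was 21.5 ± 3.38%.

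The summed RGK level was then set against the summed level of *Cacnb1* to *Cacnb4*, which encode the CaVβ subunits that RGK proteins bind. This ratio was 0.294 ± 0.0504 (SD, n = 6) at Rest, 0.663 ± 0.102 at EPS 0h, then 0.571 ± 0.136 at EPS 3h with the control LNA. In KD myotubes it was 0.472 ± 0.0472 at Rest, 1.02 ± 0.195 at EPS 0h, then 0.694 ± 0.115 at EPS 3h. The highest control ratio at Rest was 0.344, below the lowest KD ratio at Rest of 0.423, and no library at Rest reached the lowest ratio at EPS 0h with the same LNA, 0.564 in control and 0.834 in KD myotubes. The RGK sum went from 21.0 to 42.1 RPKM between Rest and EPS 0h in control and from 31.9 to 56.9 RPKM in KD myotubes. The CaVβ sum went from 72.1 to 64.0 RPKM and from 67.9 to 57.4 RPKM. Its size depends on the length used. Per longest transcript it was lower in every group, at 0.227 ± 0.0357 in Rest control and 0.699 ± 0.130 in EPS 0h KD myotubes. The ratio counts transcripts, not proteins.

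**Figure D3:**
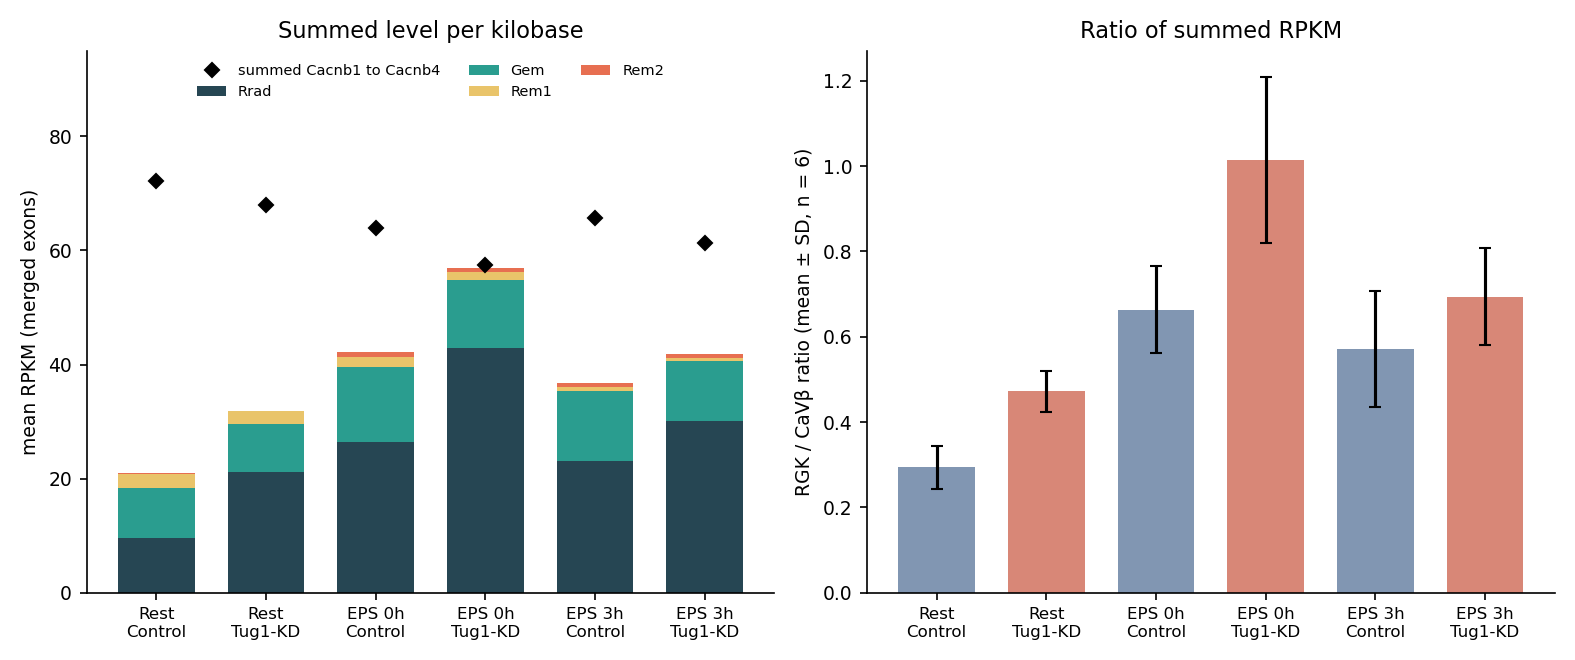
Left, mean RPKM (merged exons) of the 4 RGK genes stacked, with the summed RPKM of *Cacnb1* to *Cacnb4* as diamonds. Right, the ratio of both sums (mean ± SD, n = 6), with bars from 0, which was 0.294 in Rest control and 1.02 in EPS 0h KD myotubes. Per longest transcript, not drawn, these ratios were 0.227 and 0.699.

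The genes of the channel itself were tested over all 13995 genes. Of 26 subunit genes 11 passed the filter, and at EPS 0h in control myotubes 1 rose and 4 fell, with a median log2FC of -0.10 against -0.03 over all genes, of which 20.5% were called higher and 18.4% lower. With no filter on low counts 3 of the 26 were called, 2 of them among these 11. The count of 5 was 2 without replicate 1 and 3 without replicate 3 or 4. *Cacna1s*, which encodes the pore of the muscle channel, was at 83.2 RPM at Rest and 81.3 RPM at EPS 0h (log2FC -0.03 ± 0.20, FDR = 0.908), and *Cacna2d1*, the muscle α2δ subunit, at 68.6 and 83.2 RPM (0.28 ± 0.21, FDR = 0.303). *Cacnb1*, the muscle CaVβ subunit, fell from 245 to 201 RPM (-0.29 ± 0.10, FDR = 0.0255), a call that was lost without replicate 1, 3, 4 or 6 (FDR up to 0.0994). *Cacnb2* rose from a low level, 1.38 RPM, to 2.09 RPM (0.60 ± 0.18, FDR = 0.00873). *Cacnb3* was at 148 and 146 RPM (-0.02 ± 0.11, FDR = 0.895), and *Cacnb4* did not pass the filter, at 24 counts in 6 libraries at Rest. The γ subunits *Cacng1* (-0.30 ± 0.10, FDR = 0.0163, up to 0.0669 without replicate 1 or 2) and *Cacng6* (-0.72 ± 0.14, FDR = 9.88e-05) also fell, as did *Cacna2d2* (-0.65 ± 0.23, FDR = 0.0252, up to 0.0871 without replicate 1, 3, 4 or 5). With the replicate number as a block the FDR was 0.00616 for *Cacnb1*, 0.0069 for *Cacng1* and 0.00894 for *Cacna2d2*. That block called 49.9% of all genes. *Cacna1c*, the pore of the cardiac channel, did not pass the filter, at 16 counts in 6 libraries at Rest.

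At EPS 3h in control myotubes 3 subunit genes rose and 2 fell, with a median log2FC of 0.08 against -0.02 over all genes, of which 26.1% were called higher and 25.9% lower. Without replicate 2 the count of 5 was 3. It was 13 of 26 with no filter and 11 of 17 with a looser one (10 counts in 6 libraries), of which 6 in each case were among the 11 subunits above. *Cacnb2* rose to 2.62 RPM (0.92 ± 0.18, FDR = 5.05e-05). *Cacna1a*, the pore of a neuronal channel, rose from 0.978 to 3.54 RPM (1.84 ± 0.21, FDR = 2.22e-09), and *Cacng4* rose from 1.00 to 1.98 RPM (0.97 ± 0.36, FDR = 0.0217, up to 0.0756 without replicate 2, 3 or 4). *Cacng6* (-0.93 ± 0.14, FDR = 1.04e-06) and *Cacng1* (-0.27 ± 0.10, FDR = 0.0243, up to 0.157 without replicate 1, 2, 5 or 6) fell. *Cacnb1* was at 209 RPM (-0.23 ± 0.10, FDR = 0.0579), *Cacnb3* at 147 RPM, *Cacna1s* at 88.0 RPM (0.08 ± 0.20, FDR = 0.770) and *Cacna2d1* at 82.9 RPM.

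For KD against control at Rest 4 of the 11 subunits rose and 1 fell, with a median of 0.16 against -0.03 over all genes, of which 5.54% were called higher and 4.47% lower. The count of 5 was 3 with no filter, where 26 subunits were tested, and 3 without replicate 3 or 4. *Cacna1s* rose from 83.2 to 211 RPM (1.34 ± 0.21, FDR = 1.64e-05) and *Cacna2d1* from 68.6 to 178 RPM (1.37 ± 0.21, FDR = 1.96e-05), and in both every KD library was above every control library. The neuronal pores *Cacna1b* (1.45 ± 0.15, FDR = 1.89e-08) and *Cacna1a* (0.69 ± 0.21, FDR = 0.0299, up to 0.167 without replicate 1, 2, 3 or 4) also rose. *Cacnb1* was at 245 and 256 RPM (0.06 ± 0.10, FDR = 0.814), and *Cacnb3* fell from 148 to 117 RPM (-0.34 ± 0.11, FDR = 0.0380, up to 0.219 without replicate 3, 4, 5 or 6). At EPS 0h and EPS 3h *Cacna1s* (1.38 ± 0.21 and 1.29 ± 0.21) and *Cacna2d1* (1.52 ± 0.21 and 1.37 ± 0.21) were again higher in KD than in control myotubes, with FDRs of at most 3.27e-05. The gap in *Rrad* was smaller at EPS 0h and EPS 3h than at Rest, as given above.

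Among 14 triad partners, the proteins that couple the channel to calcium release, 0 rose and 2 fell at EPS 0h in control myotubes (20.5% and 18.4% of all genes), with a median log2FC of -0.16. With the replicate number as a block, which pairs the libraries of this comparison, 8 of the 14 were called, where the block called 49.9% of all genes. *Stac3*, which is needed to bring CaV1.1 to the membrane, fell from 89.4 to 60.2 RPM (-0.57 ± 0.15, FDR = 0.00210), and *Jph2*, which ties the membrane to the sarcoplasmic reticulum, from 379 to 280 RPM (-0.44 ± 0.14, FDR = 0.0107). *Ryr1*, the ryanodine receptor of skeletal muscle, was at 388 and 280 RPM (-0.47 ± 0.20, FDR = 0.0586, and 0.00567 with the block). At EPS 3h 1 rose and 3 fell, beside 26.1% and 25.9% of all genes (8 were called with the block, which called 61.2% of all genes). These were *Stac* (0.96 ± 0.27, FDR = 0.00268), *Stac2* (-0.44 ± 0.11, FDR = 0.00107), *Stac3* (-0.52 ± 0.15, FDR = 0.00295) and *Jph2* (-0.55 ± 0.14, FDR = 0.00092). *Ryr1* was at 300 RPM (-0.37 ± 0.20, FDR = 0.113). For KD against control at Rest *Ryr3*, *Jph2* and the calcium store protein *Casq2* rose and *Casq1* and *Fkbp1b* fell (5.54% and 4.47% of all genes), with a median of 0.24 and log2FCs between -0.48 (*Fkbp1b*) and 1.14 (*Ryr3*). The calls of *Ryr3*, *Fkbp1b* and *Jph2* did not hold throughout, and the count of 5 was 3 without replicate 3, 4, 5 or 6. That of *Ryr3* was lost without replicate 2, 3, 4, 5 or 6 (FDR up to 0.15), that of *Fkbp1b* without replicate 3, 4 or 6 (up to 0.135) and that of *Jph2* without replicate 5 (0.0588). *Ryr1* was at 388 RPM in control and 562 RPM in KD myotubes (0.53 ± 0.20, FDR = 0.0891). *Stac3* was at 89.4 and 69.1 RPM (-0.37 ± 0.15, FDR = 0.110). With the replicate number as a block, *Ryr1* (FDR = 0.00234) and *Stac3* (FDR = 0.0187) were called. In this comparison libraries of the same number deviated together (r above 0.1) in 5 of 6 pairs.

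**Figure D4:**
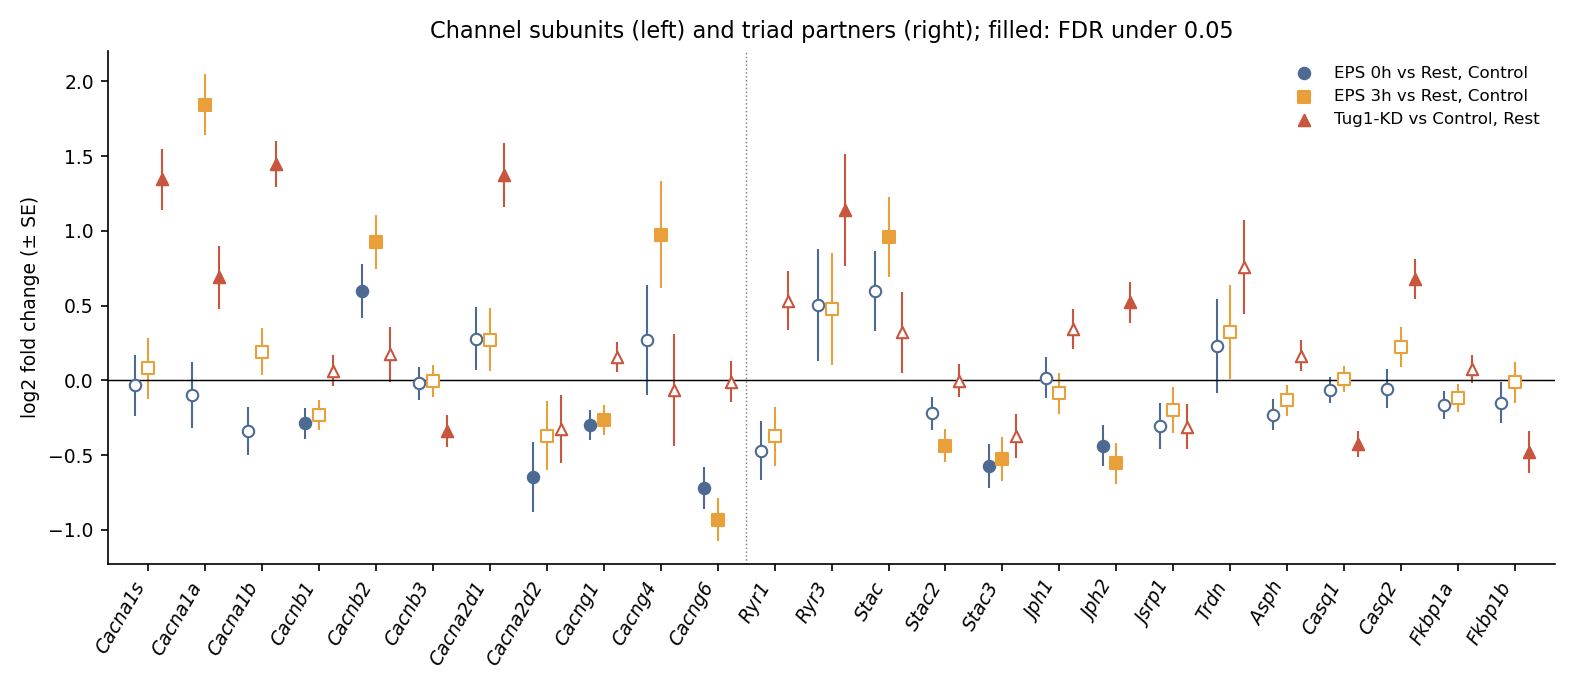
Fitted log2 fold change with its SE for the channel subunits and triad partners that passed the filter on low counts, in 3 comparisons. Filled symbols are an FDR under 0.05 over all genes and open symbols are not. *Cacna1s* lay near 0 in both EPS comparisons (-0.03 and 0.08) and at 1.34 for KD at Rest.

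The list of RGK binding partners held calmodulins, 14-3-3 proteins, calcium/calmodulin-dependent kinases and other proteins that Gem or Rad bind or that modify them. Of these 20 genes, 4 rose and 3 fell at EPS 0h in control myotubes beside 20.5% and 18.4% of all genes, with a median log2FC of 0.11. With the replicate block 11 were called, beside the 49.9% of all genes above. *Camk2d*, a calcium/calmodulin-dependent kinase, rose from 71.9 to 129 RPM (0.84 ± 0.20, FDR = 0.00121). *Ezr*, a linker of the membrane to actin, fell from 215 to 165 RPM (-0.38 ± 0.12, FDR = 0.00899). At EPS 3h 6 rose and 5 fell (26.1% and 25.9% of all genes), with a median of 0.07, and the count of 11 was 7 without replicate 2 or 4. The largest rise among genes of at least 5 RPM was that of *Nme1* (0.94 ± 0.19, FDR = 6.61e-05), a nucleoside diphosphate kinase that binds Rad. *Ezr* (-0.46 ± 0.12, FDR = 0.00116) and *Calm3*, a calmodulin gene (-0.35 ± 0.12, FDR = 0.0139, up to 0.0541 without replicate 2 or 4), fell the most among such genes with an FDR under 0.05. KD at Rest changed 1 in each direction, beside 5.54% and 4.47% of all genes, namely *Camk2a* (0.54 ± 0.12, FDR = 0.00319) and *Ezr* (-0.45 ± 0.12, FDR = 0.00723). With the replicate block *Camk2b* (FDR = 3.35e-06) and *Calm2* (FDR = 0.0239) were called too. Libraries of the same number deviated together in 5 of 6 pairs there.

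Genes of calcium-dependent transcription, the calcineurin, NFAT, MEF2, CaMK and CREB routes that read cytosolic calcium, made up a list of 22, of which 20 were tested. In control myotubes 5 rose and 5 fell at each of the EPS times, with medians of 0.05, where edgeR called 20.5% of all genes higher and 18.4% lower for EPS 0h, then 26.1% higher and 25.9% lower for EPS 3h. *Creb1* (0.77 ± 0.12, FDR = 6.22e-06) and *Nfatc3* (0.73 ± 0.12, FDR = 1.19e-05) rose the most at EPS 0h, and both were still higher at EPS 3h (0.60 ± 0.12 and 0.48 ± 0.12, with FDRs of 0.000123 and 0.00117). *Nfatc4* fell from 13.3 to 5.71 RPM at EPS 0h (-1.22 ± 0.24, FDR = 9.27e-05) and to 3.61 RPM at EPS 3h (-1.87 ± 0.24, FDR = 5.88e-08). *Crtc1*, a coactivator of CREB, fell from 64.1 to 32.1 RPM at EPS 0h (-0.999 ± 0.16, FDR = 5.69e-06), and *Nfatc1* from 25.5 to 12.9 RPM at EPS 3h (-0.98 ± 0.17, FDR = 9.09e-06). With KD at Rest 2 rose and 1 fell (5.54% and 4.47% of all genes), *Mef2c* (1.07 ± 0.22, FDR = 0.000796), *Ppp3ca* (0.53 ± 0.08, FDR = 2.72e-05) and the calcineurin regulator *Rcan1* (-0.60 ± 0.13, FDR = 0.00163).

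The other Ras family GTPases give the wider family to which RGK proteins belong. Of 31, 26 were tested, and 7 rose and 3 fell at EPS 0h in control myotubes, with a median log2FC of 0.00, while 8 rose and 6 fell at EPS 3h, with a median of 0.04. Of all genes, 20.5% were called higher and 18.4% lower for EPS 0h, and 26.1% and 25.9% for EPS 3h. Among those of at least 5 RPM, *Diras2* rose from 5.91 to 9.46 RPM at EPS 0h (0.68 ± 0.19, FDR = 0.00429) and to 12.1 RPM at EPS 3h (1.03 ± 0.19, FDR = 1.97e-05). *Rerg*, an estrogen-regulated growth inhibitor, rose at EPS 0h (0.56 ± 0.15, FDR = 0.00233) and *Rheb*, the activator of mTORC1, at EPS 3h (0.60 ± 0.09, FDR = 1.91e-06). *Rasl11b* fell at both times (-0.71 ± 0.17, FDR = 0.00083, and -0.61 ± 0.17, FDR = 0.00221), and *Rap2b* fell at EPS 3h (-0.48 ± 0.14, FDR = 0.00369). Under the alternatives run the FDRs at EPS 3h reached 0.0751 for *Rasl11b* and 0.228 for *Rap2b*. With KD at Rest 1 rose, *Rala* (0.41 ± 0.07, FDR = 0.000161), and 5 fell, all of them under 5 RPM on average in control myotubes at Rest. In that comparison 5.54% of all genes were called higher and 4.47% lower. No gene of these lists was called for the difference in the EPS response by edgeR without a block at either time.

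Over the 36 libraries the levels of the RGK genes (log2 RPM) went together for *Gem* and *Rem2* (Pearson's r = 0.77), *Rrad* and *Rem2* (0.57) and *Rrad* and *Gem* (0.43), and *Rem1* ran against *Rrad* (-0.53), *Rem2* (-0.57) and *Gem* (-0.36). These are descriptions without a test, since the libraries share their group and their set of replicates. Among the 10623 genes averaging 5 RPM or more, the 3 most like *Rrad* were *Vgll4* (r = 0.907), *Lmcd1* (0.885) and *Trp53bp1* (0.882). *Vgll4*, a cofactor of TEAD transcription factors, had means of 45.1 and 69.3 RPM at Rest, 110.0 and 197 RPM at EPS 0h and 98.1 and 169 RPM at EPS 3h in control and KD myotubes. The 3 most like *Gem* were *Zbtb21* (0.886), *Jag1*, a Notch ligand (0.857), and *Dse* (0.854). *Jag1* had 20.7 RPM at Rest and 34.1 RPM at EPS 0h in control myotubes.

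The 3 most like *Rem1* were *Rmnd5b* (r = 0.958), *Kbtbd11* (0.955) and *Eola1* (0.940). *Kbtbd11* had means of 21.7 RPM at Rest, 16.1 RPM at EPS 0h and 8.02 RPM at EPS 3h in control myotubes, beside 27.4, 20.2 and 8.75 RPM of *Rem1*. The 3 most like *Rem2* were *Chka*, which encodes a choline kinase (0.936), *Ccdc117* (0.913) and *Clu*, which encodes the chaperone clusterin (0.904). *Clu* had 5.57 RPM at Rest, 55.6 RPM at EPS 0h and 61.4 RPM at EPS 3h in control myotubes.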

How the data were processed

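The 36 libraries hold poly-A RNA read as stranded pairs. The authors trimmed the reads with fastp 0.14.1, aligned them with STAR 2.5 to GRCm39 and deposited whole-number counts per gene, with no normalization. The tool and strand setting of counting are not given in the sources used here. The 1492 genes given by identifier with no symbol hold 0.0327% of the counts and were kept. Group and replicate were read from the titles, and no library was left out. Depth had a median of 19439667.5 counts (18478194 in replicates 1 to 3 and 21106357 in replicates 4 to 6). Every pair of libraries of a group differed by more than counting error.

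A gene was kept if 12 or more libraries had 1 RPM or more of it, and TMM scaling was applied. The quasi-likelihood test of edgeR 4.0.16 (R 4.3.3), with robust dispersion and Benjamini-Hochberg adjustment over all 13995 genes, was fitted to the 6 groups without a block. The method was tested on simulated data. An SE is the absolute log2FC divided by the square root of the test's F. RPM are TMM-scaled, with a prior count of 2 for log values. Lengths and coordinates come from GENCODE. Motifs, figures and summaries were made in Python 3.11.15 with pandas 2.3.3 and matplotlib 3.10.9.

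The members and lists were chosen with earlier results of these data known. The genes named are the RGK genes, the main channel and triad genes, *Tug1*, and from each other list the 2 largest rises and falls at either EPS time in control myotubes with an FDR under 0.05 and at least 5 RPM in the higher group. Other subunits, *Stac*, *Stac2*, the list genes named for *Tug1* KD, *Fut2* and *Tubb3* were added after their values were seen. A few genes of the binding partner list that the rule names are not reported here. Alternatives were DESeq2 1.42.0, limma-voom (limma 3.58.1, the study's method), scaling by library size, no filter (39727 genes), a looser filter of 10 counts in 6 libraries (17149 genes), blocks, each set of replicates, and each replicate number left out. Samples with the same replicate number deviated together (r of at least 0.122 in each of 6 pairs) in 6 comparisons: in control myotubes EPS 0h or EPS 3h against Rest, in KD myotubes EPS 0h against Rest and EPS 3h against EPS 0h, and KD against control at EPS 0h or EPS 3h. There the replicate block, an alternative, takes them as pairs, while the main fit and its FDRs left them unpaired in every comparison. No label ties the numbers to a batch. Only libraries of the same number were correlated, so pairing by number cannot be told from the split of the 2 sets.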

Additional observations from a re-analysis of the deposited data

Results flagged for a closer look

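Of 24 groups of 6 libraries (4 genes in 6 groups), 5 held a library far from the other 5, where chance gives about 1 in 20 groups. *Rrad* in replicate 3 of EPS 0h *Tug1* KD was the lowest of its group at 60.8 RPM, with a group median of 77.6 RPM. *Gem* in replicate 6 of Rest control was the highest of its group at 33.7 RPM, with a median of 20.8 RPM. *Gem* was lowest in replicate 2 of EPS 0h control at 29.7 RPM, against a median of 34.4 RPM, and highest in replicate 6 of EPS 3h control at 35.3 RPM, against 31.1 RPM. *Rem1* in replicate 4 of Rest control was the highest of its group at 32.5 RPM, against 26.5 RPM. Without replicate 6 the log2FC of *Gem* against Rest in control myotubes was 0.75 in place of 0.58 for EPS 0h, then 0.63 in place of 0.49 for EPS 3h, and without replicate 2 it was 0.61 for EPS 0h. Without replicate 3 that of *Rrad* for EPS 0h in KD myotubes was 1.10 in place of 1.02. Without replicate 4 that of *Rem1* for KD against control at Rest was -0.17 in place of -0.24.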

How the results depend on the processing

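Of 396 log2FCs of RGK genes under other settings, 383 moved by less than the spread between libraries and 13 by more, all of them with 1 set of replicates alone. That spread (SD of 0.21 to 0.60 on the log2 scale) is wide for a difference of means of 6, so these counts are no sign of stability. With each replicate number left out, *Rem2* in KD against control at Rest ranged from -0.98 (without replicate 4) to -0.24 (without replicate 5), and its difference in the EPS response from 0.16 to 0.81 for EPS 0h and from 0.17 to 0.89 for EPS 3h, lowest without replicate 2 and highest without replicate 4. With replicates 1 to 3 alone the log2FC was 1.62 for *Rem2* at EPS 0h against Rest in control myotubes, 0.81 and 0.64 for *Gem* at EPS 0h and then EPS 3h in KD myotubes, -0.26 and -1.28 for *Gem* and *Rem2* in KD against control at Rest, and -0.12 for *Rem1* in KD against control at EPS 3h. The difference in the EPS response was then 0.20 (*Gem*) and 1.33 (*Rem2*) at EPS 0h and 0.10 (*Gem*) at EPS 3h. With replicates 4 to 6 alone *Gem* had 0.25 and 0.048 in KD myotubes, and the difference in response was -0.37 for *Rem2* (EPS 0h) and -0.40 for *Gem* (EPS 3h). The causes were not tested. Scaling by library size alone moved the median of all genes for EPS 3h against Rest from -0.02 to -0.19 in control and from -0.04 to -0.21 in KD myotubes. Per length of the longest transcript the ratio of RGK to CaVβ was 0.227 and 0.340 at Rest (control, KD), 0.474 and 0.699 for EPS 0h, then 0.400 and 0.476 for EPS 3h. All 6 ratios moved by more than the SD between libraries.

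Among list genes named above, the FDR under an alternative also reached 0.1001 for *Cacnb2* and 0.0866 for *Jph2* at EPS 0h in control myotubes. It reached 0.127 for *Stac3* at EPS 3h, and 0.0734 for *Rcan1* in KD against control at Rest. Of 153 counts of list genes called, 30 moved by over 1.5 times. For EPS 0h against Rest in control myotubes, channel subunits (5) gave 3 of 26 with no filter, 2 of them among the 11 of the main filter. They gave 3 with replicates 1 to 3 and with replicates 4 to 6. Triad partners (2) gave 7 with library size only, 8 with the replicate block, 7 with a block for the set of replicates, 6 with replicates 1 to 3 and 4 with replicates 4 to 6. Binding partners (7) gave 11 with the replicate block, with the set block and with replicates 1 to 3, and calcium-dependent transcription (10) gave 6 with replicates 4 to 6. For EPS 3h, channel subunits (5) gave 13 with no filter and 11 with the looser filter (10 counts in 6 libraries), where 26 and 17 subunits were tested in place of 11, and triad partners (4) gave 8 with library size only, with the replicate block, with the set block and with replicates 1 to 3. For KD against control at Rest, samples of the same number deviated together (r above 0.1) in 5 of 6 pairs, with r down to -0.0767. There channel subunits (5) gave 3 of 26 with no filter. Triad partners (5) gave 3 with no filter, 9 with the replicate block and the set block, 3 with replicates 1 to 3 and 11 with replicates 4 to 6. Binding partners (2) gave 4 with the replicate block and the set block and 6 with replicates 4 to 6. Calcium-dependent transcription (3) gave 5 with the replicate block and 6 with replicates 4 to 6, and other Ras GTPases (6) gave 1 with replicates 1 to 3. With each replicate number left out, channel subunits ranged from 2 to 4 (EPS 0h; lowest without replicate 1), 3 to 5 (EPS 3h; without replicate 2) and 3 to 4 (KD at Rest; without replicate 3 or 4), binding partners from 7 to 11 (EPS 3h; without replicate 2 or 4) and triad partners from 3 to 5 (KD at Rest; without replicate 3, 4, 5 or 6).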
